A study of Homo sapiens with 12 samples.

Results

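The genes described here form the pathway that detects DNA in the cytosol and answers it with interferon. They were a list of 10 among the 20037 protein-coding genes that the RefSeq gene table places on the autosomes, X and Y: CGAS, STING1, TREX1, TBK1, IRF3, IFNB1, ISG15, IFIT1, IFIT2 and IFIT3. This list and the lists of other genes below were chosen with earlier results of these data known. Sites belonged to a gene when their summit, the point of highest signal in a called peak, lay inside it or within 10 kb. By this rule 26 of the 188019 summits of the series belonged to the 10 genes. The genes were listed for their bearing on nuclear rupture in cells squeezed through narrow spaces.

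The study measured chromatin accessibility by ATAC-seq, in which a transposase cuts into open DNA, in HT1080 cells, an established human fibrosarcoma line. Cells migrated for 48 h in gels of rat tail type I collagen, and the 3 groups of 4 libraries differ in how dense the gel was: 0.3 mg/mL in the low group, 1.0 in the medium and 1.7 in the high. All 3 groups also received GM6001, a broad metalloproteinase inhibitor, at 20 µM, so no group lacked the inhibitor. The values come from 1 peak list that holds no column for a library or a concentration, so no comparison between the concentrations is made, and the depth of each library is unknown. The labels do not say whether the libraries of a group came from separate cultures.

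In cells, cGAS binds double-stranded DNA outside the nucleus and makes the cyclic dinucleotide cGAMP, which activates STING on the endoplasmic reticulum. STING recruits the kinase TBK1, TBK1 phosphorylates the transcription factor IRF3, and IRF3 enters the nucleus to switch on IFNB1, while the exonuclease TREX1 degrades DNA before it is sensed. Secreted interferon beta acts through its receptor, JAK kinases and STAT factors on genes such as ISG15 and the IFIT family, whose promoters carry the interferon-stimulated response element (ISRE). HT1080 is the parent of the mutant lines with which this interferon signalling was mapped.

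The line's mesenchymal character was checked first. A start summit, here a summit within 1000 bp of a gene's listed start, or of either end where no start was listed, was present at 7 of 8 mesenchymal marker genes and absent from THY1, against 65.9% of all coding genes. The enrichments of the 7 had a median of 7.20, with VIM at 6.64 and FN1 at 15.1, and FN1 alone lay above the median of 11.9 over coding genes with a start summit. Of 6 epithelial markers only EPCAM had one, at an enrichment of 2.11, and CDH1, KRT5, KRT14, GRHL2 and ESRP1 had none. Of the 6 only KRT5 had a listed start, and of coding genes judged by either end 59.3% had a start summit. Within 10 kb 4 of the 6 had a summit, which reached 15.9 at EPCAM and 12.5 at CDH1. Among 6 haematopoietic markers CD3E (14.5) and SPI1 (8.44) had one. Enrichment is the authors' fold over the background used by their peak caller, here and below.

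RefSeq promoter sequences (GRCh38.p14, 250 bases before to 50 after a start) were matched for 6 of the 10 genes. They are shown because the motifs and base composition described below can be read in them. In ISG15 (chr1:1013247-1013546, plus strand), IFIT1 (chr10:89392373-89392672, plus strand) and the upstream start of IFIT3 (chr10:89327747-89328046, plus strand) the capitals mark the ISRE core, GAAANNGAA followed by a further A, on either strand and, near the right end of the IFIT3 sequence, a TATA match. The downstream IFIT3 start (chr10:89332279-89332578, plus strand) is given as a contrast, since it holds the same core and no summit lay near it. In IFNB1 (chr9:21077893-21078192, minus strand) capitals mark a GAS match and a TATA match. In TREX1 (chr3:48465580-48465879, plus strand) they mark an AP-1 match, and in TBK1 (chr12:64451870-64452169, plus strand) an NRF1 and an ETS match.
ISG15: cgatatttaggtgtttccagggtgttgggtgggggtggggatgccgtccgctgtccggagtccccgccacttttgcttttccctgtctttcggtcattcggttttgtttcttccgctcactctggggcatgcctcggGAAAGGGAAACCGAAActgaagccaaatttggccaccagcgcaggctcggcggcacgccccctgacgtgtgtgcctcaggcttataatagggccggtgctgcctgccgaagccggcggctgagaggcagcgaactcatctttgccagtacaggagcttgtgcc
IFIT1: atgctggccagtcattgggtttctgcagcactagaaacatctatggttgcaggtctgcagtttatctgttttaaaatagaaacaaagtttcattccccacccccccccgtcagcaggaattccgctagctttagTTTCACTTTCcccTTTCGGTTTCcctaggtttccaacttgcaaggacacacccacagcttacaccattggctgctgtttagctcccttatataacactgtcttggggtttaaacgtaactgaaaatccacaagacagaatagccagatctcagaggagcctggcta
IFIT3 upstream start: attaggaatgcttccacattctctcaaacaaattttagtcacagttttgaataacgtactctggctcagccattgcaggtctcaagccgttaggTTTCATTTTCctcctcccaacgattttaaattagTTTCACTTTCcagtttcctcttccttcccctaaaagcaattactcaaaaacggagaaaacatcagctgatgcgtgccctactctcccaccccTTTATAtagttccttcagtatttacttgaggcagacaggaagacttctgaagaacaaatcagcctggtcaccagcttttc
IFIT3 downstream start: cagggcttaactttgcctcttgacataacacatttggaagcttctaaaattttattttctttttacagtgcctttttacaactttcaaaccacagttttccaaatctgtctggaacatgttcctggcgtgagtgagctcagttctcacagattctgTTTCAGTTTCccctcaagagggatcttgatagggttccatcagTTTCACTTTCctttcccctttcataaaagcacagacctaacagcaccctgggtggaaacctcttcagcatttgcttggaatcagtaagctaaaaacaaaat
IFNB1: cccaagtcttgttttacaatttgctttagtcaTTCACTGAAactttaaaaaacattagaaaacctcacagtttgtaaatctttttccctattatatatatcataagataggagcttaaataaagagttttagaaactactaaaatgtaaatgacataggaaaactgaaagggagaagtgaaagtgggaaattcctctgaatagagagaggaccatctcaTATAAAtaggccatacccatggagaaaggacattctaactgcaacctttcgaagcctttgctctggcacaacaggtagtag
TREX1: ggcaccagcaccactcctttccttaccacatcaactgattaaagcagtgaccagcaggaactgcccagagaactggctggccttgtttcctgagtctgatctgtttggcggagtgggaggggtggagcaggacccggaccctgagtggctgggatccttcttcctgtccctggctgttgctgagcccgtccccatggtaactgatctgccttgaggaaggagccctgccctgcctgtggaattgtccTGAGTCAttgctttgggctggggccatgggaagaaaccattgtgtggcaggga
TBK1: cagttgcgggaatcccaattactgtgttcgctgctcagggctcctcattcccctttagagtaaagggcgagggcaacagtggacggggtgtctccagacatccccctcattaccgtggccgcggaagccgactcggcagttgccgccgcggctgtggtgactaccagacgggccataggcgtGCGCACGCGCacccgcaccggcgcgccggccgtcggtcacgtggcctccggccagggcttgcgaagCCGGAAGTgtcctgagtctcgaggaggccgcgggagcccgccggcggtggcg

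Accessible sites were called at the starts of 9 of the 10 genes. The exception was IFNB1, which codes for the interferon itself. Over all coding genes 65.9% had a start summit. Of the 6 genes with a listed start 5 had one, against 67.7% of coding genes with a listed start. All 4 genes judged by either end (CGAS, STING1, IRF3 and IFIT2) had one, against 59.3% of coding genes judged in that way. With the window of 10 kb all 10 genes had a summit, as did 89.8% of coding genes, so that count says little about the pathway.

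The strength of these sites was mostly modest. The median of the highest start enrichment was 7.77 over the 9 genes and 11.9 over the 13207 coding genes with a start summit. Only TBK1 and TREX1 lay above the coding median. Counted as fragment pileup, the number of overlapping fragments at the summit recovered from the deposited values, the medians were 380 and 768. Whether whole fragments, single reads or cut sites were piled up is not given in the sources used here. The word fragment stands for the counted unit throughout. TREX1, TBK1, STING1 and IRF3 exceeded the coding median in pileup, and ISG15, the 3 IFIT genes and CGAS did not. No test was run on these medians, because the members were chosen as a list and share their libraries.

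**Figure D1:**
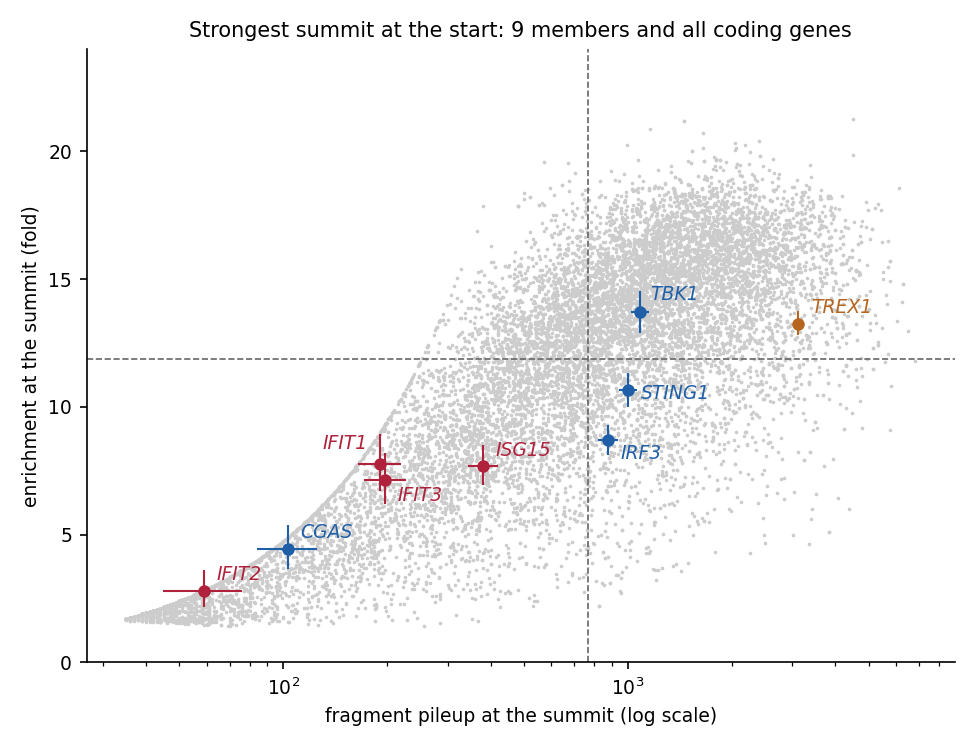
Enrichment (fold, linear axis) against fragment pileup (log axis) at the strongest start summit of 9 members, with bars for 95% Poisson counting intervals, and of all 13207 coding genes with a start summit (grey). Blue marks sensor and adaptor genes, brown TREX1 and red interferon-stimulated genes; dashed lines are the coding medians of 11.9 and 768, and only TBK1 and TREX1 lie above both.

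CGAS, the DNA sensor that starts the pathway, had a weak site. Its only summit within 1000 bp of an end lay inside the gene on chromosome 6, 353 bp from the end at 73452297. Its enrichment was 4.46 (95% counting interval 3.65 to 5.40), from a pileup of 103 and with a −log10 q of 33.4, and its interval spanned 73451321 to 73452389. The enrichment exceeded that of only 15.2% of coding genes with a start summit. The other summit of CGAS, 9521 bp outside the gene, was stronger, at 11.95 and 407 fragments, but lay within 1000 bp of an end of MTO1, a mitochondrial tRNA modification gene. Counting intervals here and below cover counting error only, since reads of PCR copies are not independent molecules and the treatment of duplicates is not given in the sources used here.

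STING1, the adaptor on the endoplasmic reticulum, had summits at both ends of the gene on chromosome 5 and none elsewhere. At the end at 139482758 the summit lay 379 bp inside the gene, in an interval from 139481766 to 139482971. It was enriched 10.7-fold (10.0 to 11.3) and held 1001 fragments. An end of the pseudogene LOC101059986 lay within 1000 bp of it. At the opposite end, at 139475533, the enrichment was 2.03 (1.604 to 2.54) and the pileup 75. The stronger site thus stood over a local background that was also higher, 93.1 fragments against 36.4.

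TBK1, the kinase, had the highest enrichment of the 10 genes. Its main summit lay 25 bp from the start on chromosome 12, in an interval of 1300 bp that was the longest among the 26 summits. The enrichment was 13.7 (12.9 to 14.6) and the pileup 1083. A second summit of the same interval, 786 bp inside the gene, reached 2.36, and a site 9690 bp inside the gene reached 4.13 with a pileup of 87.

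IRF3, the transcription factor that TBK1 activates, shared its strongest site with a neighbour. The summit lay 63 bp outside the end at 49665857 on chromosome 19 and within 1000 bp of an end of BCL2L12, a gene of the BCL2 family. Its 876 fragments over a background of 99.8 gave an enrichment of 8.70 (8.13 to 9.30). Inside IRF3 lay 2 further summits, with enrichments of 4.86 and 3.21. The one at 4.86 also lay within 1000 bp of an end of BCL2L12. Which of the overlapping genes a fragment serves cannot be told from the list.

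TREX1, the exonuclease that removes cytosolic DNA, had the most fragments. The summit lay 54 bp before its start on chromosome 3, in the interval 48465385 to 48466481, with a pileup of 3123 and a −log10 q of 2256. In pileup it exceeded 96.3% of coding genes with a start summit, and in enrichment 61.0%. The enrichment was 13.3 (12.8 to 13.7), over a local background of 234.5 fragments, which was 11.5 times the genome-wide value of 20.3. TREX1 lies within the span of ATRIP, a checkpoint gene, so the same summit is also inside ATRIP. A second site, 7356 bp past the start, was enriched 11.1-fold with 857 fragments, and the nearest coding gene was SHISA5.

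**Figure D2:**
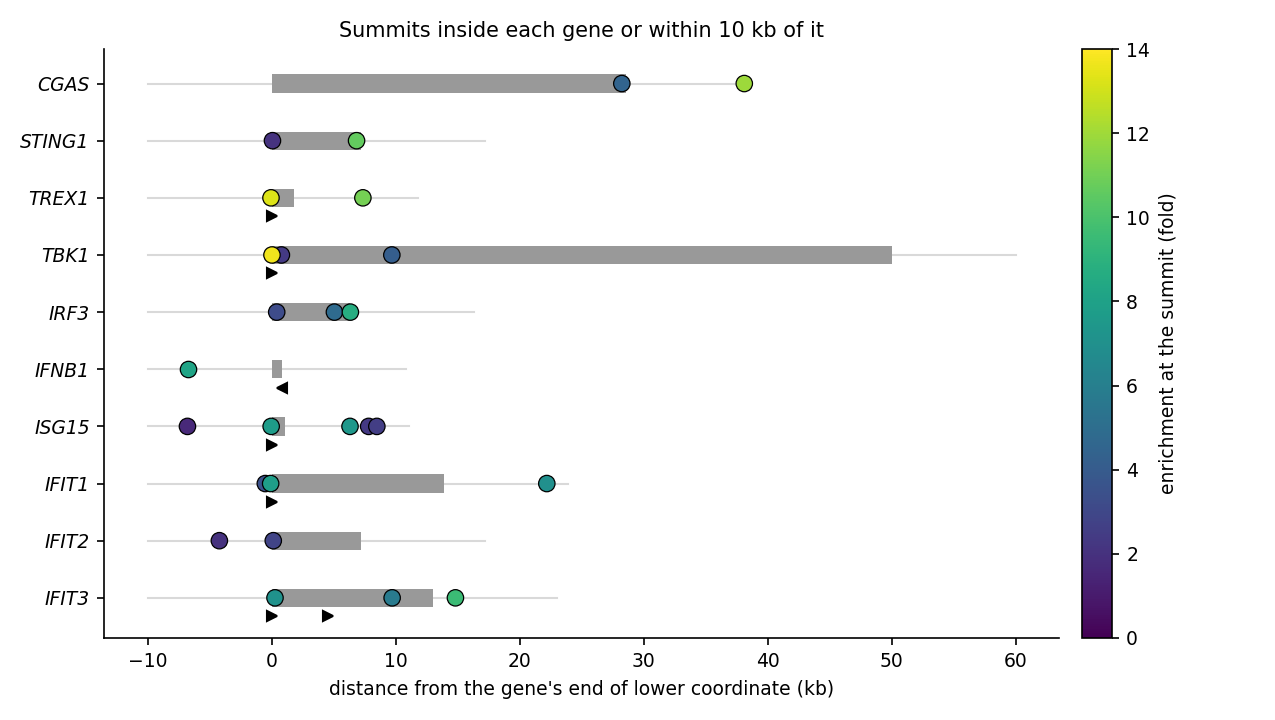
Each row is a gene (grey bar) with 10 kb on either side (thin line), drawn in kb from its end of lower coordinate; circles are summits coloured by enrichment (fold) and triangles listed starts with their direction. IFNB1 has no circle at its start, and the brightest circles lie at the starts of TBK1 (13.7) and TREX1 (13.3).

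IFNB1 had a single summit within 10 kb and none at its start. The summit lay 6782 bp beyond the gene and 7620 bp from the start on chromosome 9, in the interval 21070126 to 21070560. The 173 fragments there, over the genome-wide background, gave an enrichment of 8.16 (7.00 to 9.46). No gene end lay within 1000 bp of it. At the list's q-value limit of 0.05 the lowest pileup of any summit in the series was 35, so fragments below that level at the IFNB1 start would not appear.

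The rest of the interferon genes resembled IFNB1 in this respect. Of 20 type I and type III interferon genes only 3 had a start summit (15%), against 65.9% of coding genes. The promoter sequences of the 17 with a listed start all had at most 7 CpG dinucleotides. Of these 17 genes 2, IFNL2 and IFNL3, had a start summit. Among all coding-gene promoters with so few CpGs, 19.8% had a summit within 1000 bp, so a low share was not particular to interferon genes. Promoters of that class with a summit had a median enrichment of 5.20. The 3 sites were weak: IFNW1 reached 2.35, IFNL2 2.04 and IFNL3 1.92, with pileups of 49, 54 and 40. IFNB1, IFNA1, IFNA2, IFNA4 and 13 others had none. The nearest summit lay at a median of 7336.5 bp from the start, up to 24394 bp for IFNA13. Some interferon genes, among them interferon alpha genes, are similar copies of each other. Fragments there may be split between copies or discarded as ambiguous, and the part of such fragments in these counts was not tested.

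The cluster that holds IFNB1 had fewer summits per length than its chromosome, 37.0 against 56.8 per Mb. From 21077104 to 21482313 on chromosome 9, a span of 405.2 kb with 16 interferon genes, 15 summits were called, with a median enrichment of 4.88 and a range of 1.97 to 13.0. A single one, that of IFNW1, lay inside an interferon gene, and the others lay between them. The strongest belonged to the start of KLHL9, a ubiquitin ligase adaptor gene. HT1080 is known for a deletion of CDKN2A, and no summit lay between 21812632 and 22084850, a stretch of 272.2 kb that contained CDKN2A and CDKN2B. That stretch began 734.7 kb beyond the IFNB1 start, and the summits of the interferon cluster lay outside it. The extent of the deletion and the copy number of the interferon cluster were not tested.

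**Figure D3:**
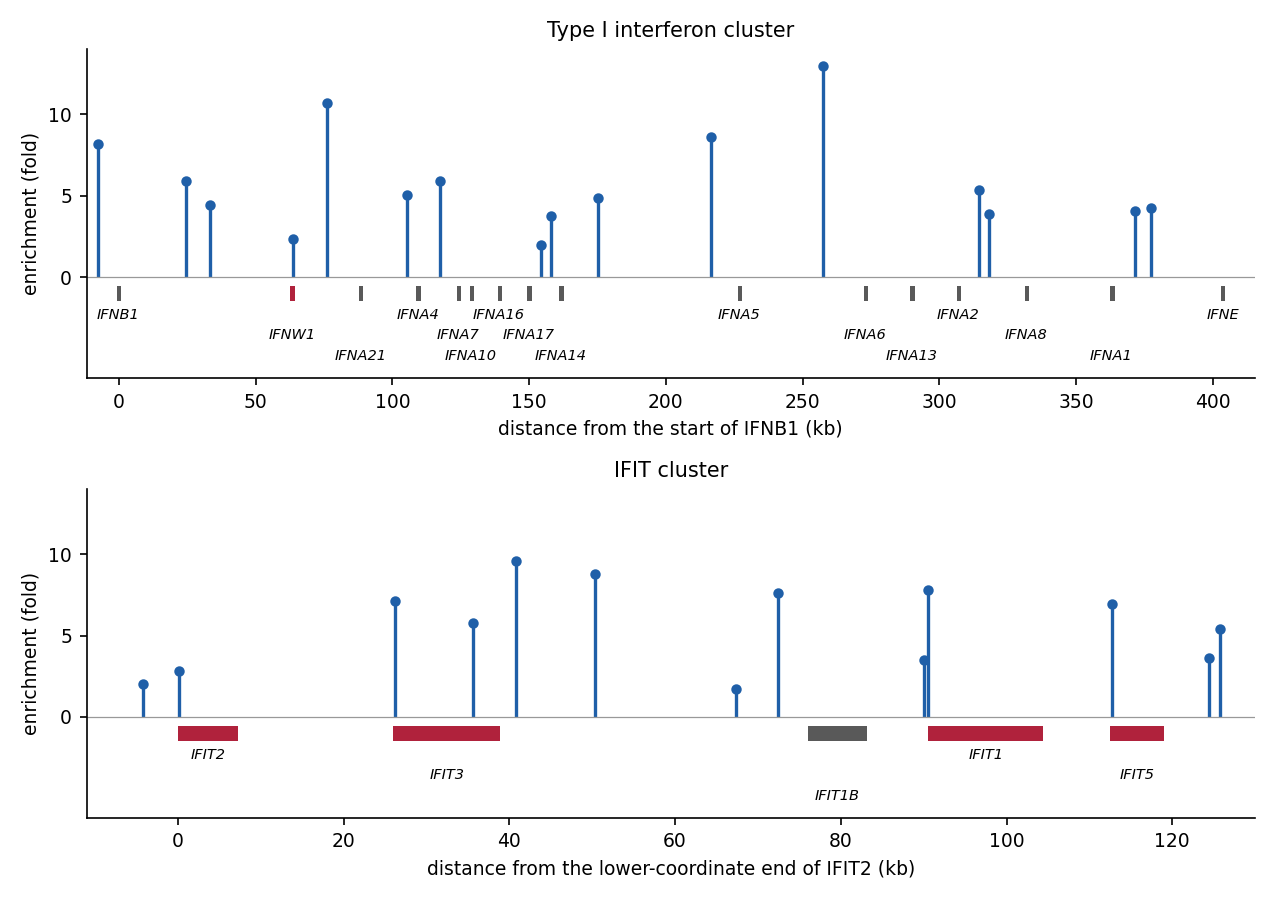
Enrichment (fold) of every summit (blue) against distance in kb, along the interferon cluster from the IFNB1 start (top) and the IFIT cluster from the lower end of IFIT2 (bottom), each with 10 kb on either side. Bars are genes, red with a start summit and grey without; of 16 interferon genes only IFNW1 is red, and of 5 IFIT genes only IFIT1B is grey.

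ISG15, a ubiquitin-like protein attached to other proteins after interferon, had a summit 39 bp before its start on chromosome 1. The interval ran from 1013184 to 1013934, and the enrichment was 7.68 (6.93 to 8.495) at a pileup of 380. The ISRE core matched at positions -113 to -104 and -107 to -98 from the start, as overlapping matches inside the interval, their centres 69 and 63 bp from the summit. With 5 summits within 10 kb ISG15 had the most of the 10 genes. The strongest of the other 4 had a pileup of 1257, more than at the ISG15 start, at an enrichment of 7.48, and lay within 1000 bp of an end of AGRN, which codes for the matrix protein agrin.

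The IFIT genes, whose proteins bind foreign RNA, lie together on chromosome 10, and those of the list lie within the span that RefSeq gives to LIPA. IFIT1 had a summit 79 bp before its start, where 191 fragments gave an enrichment of 7.77 (6.71 to 8.95). Its ISRE matches, at positions -116 to -107 and -103 to -94, had centres 32 and 19 bp from that summit. A shoulder summit of the same interval, 511 bp before the start, reached 3.49. In IFIT1 and ISG15 the ISRE matches therefore lay at most 69 bp from the summit, on its upstream side.

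At IFIT3 the summit lay 270 bp past the upstream start, at an enrichment of 7.14 (6.19 to 8.20) from 198 fragments. The ISRE matches, at positions -156 to -147 and -122 to -113, were in the same interval but 421 and 387 bp from the summit. The strongest site of IFIT3 was not at a start: a summit 1847 bp beyond the gene reached 9.56 (8.36 to 10.9) with 227 fragments, and no gene end lay within 1000 bp of it. The downstream start of IFIT3 carried 2 ISRE matches of its own, and no summit lay within 1000 bp of it; the next one downstream, inside the gene, was 5183 bp away.

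IFIT2 was the weakest member with a start summit. The summit lay 131 bp inside the gene from the end at 89302046, with an enrichment of 2.81 (2.15 to 3.62), a pileup of 59 and a −log10 q of 10.4. Its interval of 354 bp was longer than that of only 3.91% of coding genes with a start summit. An end of the noncoding gene LOC105378419 lay within 1000 bp of it. Across the IFIT cluster of 119.0 kb, 10 summits were called, 5 of them near a gene start. IFIT5 had a start enrichment of 6.96, at a summit shared with an end of LIPA, and IFIT1B had no start summit, its nearest being 3599 bp away.

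Ordered by start enrichment, the genes ran TBK1, TREX1, STING1, IRF3, IFIT1, ISG15, IFIT3, CGAS and IFIT2. The counting intervals of TBK1 and TREX1 overlapped, as did those of each neighbouring pair from IRF3 to IFIT3. Those of TREX1 and STING1, of STING1 and IRF3, of IFIT3 and CGAS, and of CGAS and IFIT2 did not. These intervals leave out the spread between libraries, which the pooled list does not hold.

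Base composition set the members apart from each other. In the 300 bases of the promoter sequence, TBK1 had 35 CpG dinucleotides and ISG15 had 20, whereas IFIT3 had 5 at its upstream start, IFIT1 4, TREX1 3 and IFNB1 1. Of 22199 promoters of coding genes, those with at most 7 CpGs had a summit within 1000 bp in 19.8% and those with at least 32 in 85.6%. TREX1, IFIT1 and IFIT3 were thus accessible in a class where most promoters had no summit. IFNB1, without a start summit, fell in the same class. Within that class TREX1 was more enriched than 90.7% of the promoters with a summit, IFIT1 than 67.5% and IFIT3 than 64.0%. TBK1, in the class of highest CpG content, exceeded 63.1% of its class. ISG15, in the class of 8 to 21 CpGs, of which 64.0% had a summit, exceeded only 30.8%.

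**Figure D4:**
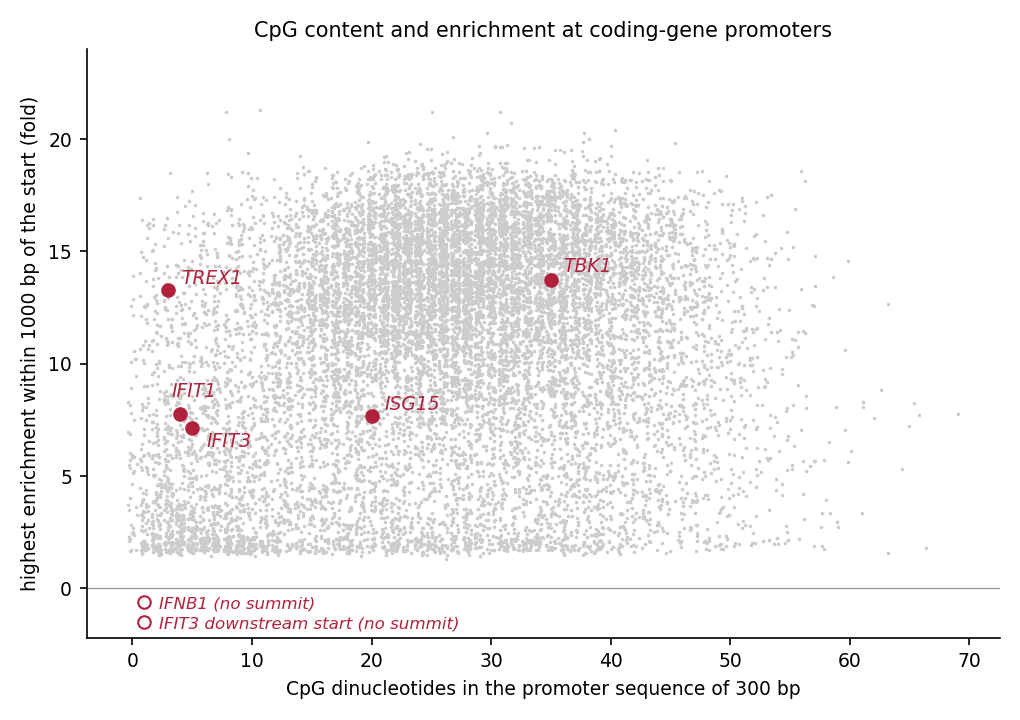
Highest enrichment within 1000 bp of the start (fold) against CpG dinucleotides in the promoter sequence, for promoters of coding genes with a summit (grey) and the members with a listed start (red). TREX1, IFIT1 and IFIT3 have 3 to 5 CpGs and a summit; IFNB1 and the downstream IFIT3 start, with 1 CpG each, have none and are drawn as open circles below the axis.

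Motifs were searched in the same sequences on both strands: the ISRE core as above, GAS (TTCNNNGAA), NF-kB (GGG and CC with 5 bases of any kind between them), AP-1 (TGANTCA), CRE (TGACGTCA), the TATA box (TATAAA), the GC box (GGGCGG), ETS (CCGGAAGT) and NRF1 (GCGCANGCG followed by C). The ISRE core occurred in 3.17% of coding-gene promoters, and ISG15, IFIT1 and both IFIT3 starts held it. It did not match in the sequences of TREX1, TBK1 and IFNB1, which says only that these letters are not in those windows, and the other 4 members were not searched. In IFNB1 the NF-kB letters matched at positions -66 to -57 as GGGAAATTCC, a loose motif found in 66.6% of promoters. The AP-1 match of TREX1 (6.15% of promoters) lay across its start, at positions -3 to 3, with its centre 54 bp from the summit. The ETS match of TBK1 (5.34%) lay at -2 to 5, with its centre 23 bp from the summit, and its NRF1 match (7.39%) at -68 to -59.

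The other genes of the pathway were grouped by role, and each count reads against the 65.9% of coding genes with a start summit and each median against 11.9. Start summits were present at 6 of 7 DNA sensor genes, with a median enrichment of 12.8. DDX41 (15.2) was highest, TLR9 (1.48) was lowest, and ZBP1 had none. CGAS was the next lowest. Of 8 nuclease and related genes 7 had one (median 11.7, just below that of coding genes), from SAMHD1 (17.1) to RNASEH2B (3.75). DNASE2 had none, although a summit within 10 kb of it reached 16.8. Of 10 adaptor, kinase and RNA sensor genes 9 had one (median 10.2, also below it), from TBK1 (13.7) to IKBKE (7.48), and IRF7, a factor that amplifies interferon production, had none.

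Among interferon receptor and signalling genes a start summit was present at 8 of 9, with a median of 14.3, and 5 lay above the coding median of 11.9. STAT2 (17.9, pileup 3445) was highest and IL10RB (9.52) lowest. IFNLR1, which forms the type III interferon receptor with IL10RB, had none.

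Of 24 interferon-stimulated genes 17 had a start summit, or 70.8%, a share near the 65.9% of all coding genes. Their median enrichment was 5.62 and their median pileup 135, against 11.9 and 768. IFI6 (14.3) was the only one above the coding median, and IFITM2 (2.77) was lowest. IFIT1B, OASL, IFI27, IFI44 and 3 others had none. Within 10 kb the highest summit was 7.77 at IFIT1B, 11.8 at OASL and 8.77 at IFI27, and IFI44 had no summit. By start enrichment ISG15, IFIT1 and IFIT3 were among the stronger members of a group mostly below the coding median. IFIT2 was next to the lowest. The 18 genes of the group with a promoter sequence had a median of 5.5 CpGs there, genes without a start summit included. Among all coding-gene promoters with at most 7 CpGs, those with a summit had a median enrichment of 5.20. IFIT1, IFIT3, OAS1 and BST2 had a summit at such a promoter. ISG15, MX1 and OAS3 (20 CpGs each), HERC5 (21), IFIT5 (16), IFI6 (9) and IFITM3 (8) had theirs in the class of 8 to 21. Promoters with a summit in that class had a median of 11.2, and of these genes IFI6 alone lay above it. RSAD2 had summits at promoters of 45 and 4 CpGs. The part of CpG content in the group's enrichments was not tested. IFITM1, IFITM2 and IFITM3 are similar copies, between which fragments may be split, and its part in their values was not tested.

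Of 18 interferon-stimulated genes with a promoter sequence 16 held the ISRE core, against 4.16% of all coding genes with a promoter sequence. A start summit was present at 11 of the 16 and absent from 5, which were CXCL10, IFI27, IFI44, IFI44L and IFITM1 (named after their values were seen). Over all coding genes with the core, 419 had a start summit and 240 did not. Counted by promoter, 51.9% of those with the core and 63.0% of those without it had a summit.

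**Figure D5:**
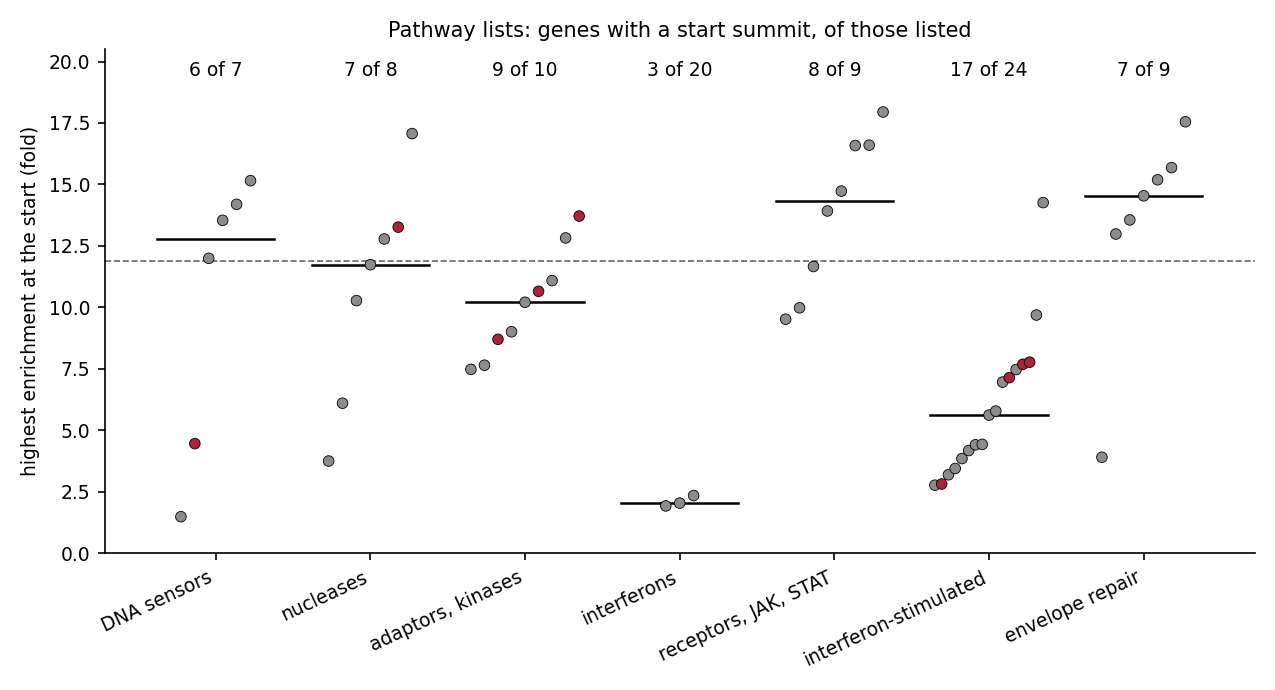
Highest start enrichment (fold) of each gene with a start summit, by pathway list (red, members; grey, other genes), with the list median as a bar and the coding median of 11.9 dashed; the numbers give genes with a start summit of those listed. Interferon genes have 3 of 20, at most 2.35, and interferon-stimulated genes 17 of 24 with a median of 5.62.

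Away from the starts of the members, 13 member summits had enrichments of 1.64 to 11.95, with a median of 5.77. Of these, 4 lay within 1000 bp of an end of another gene, among them the highest, near MTO1. Near the limit of 10 kb the farthest summit counted was that of CGAS at 9521 bp. Just outside lay a summit 11119 bp from IRF3, near PRMT1, with an enrichment of 11.4, one 11472 bp from IFIT3 (8.79) and one 11515 bp from ISG15 (2.52).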

How the data were processed

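ATAC-seq was done on 12 libraries in 3 groups of 4, and the deposited data used here were 1 peak list of 188019 summit lines, with no column per library. The submitters' processing notes name fastp 0.20.0, Bowtie2 2.4.3, SAMtools, deepTools 3.5.0, MACS2 2.2.7.1 and the build hg38, without roles. Read filters, duplicates and how libraries were pooled are not given in the sources used here. The deposited columns hold a score, the enrichment (a ratio, fold over background), and p-value and q-value as −log10; all are the authors' own values.

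Pileup x and background b were solved from enrichment = (x + 1)/(b + 1) and p as the Poisson upper tail. This model is not stated by the authors. It gave whole pileups (within 0.05) in 99.96% of lines. On data simulated under the same model the solution recovered 5000 of 5000, which tests the calculation and not the model. The lowest background, 20.3, recurred (within 0.2%) in 53.0% of lines and is called genome-wide. No library is labelled as a control. Whether a summit's own fragments enter its local background is not given in the sources used here. A higher pooled depth raises pileup and −log10 q.

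Gene positions came from RefSeq GRCh38.p14, and starts from its promoter table, listed for 15843 of 20037 coding genes; either end was used otherwise. Intervals are exact 95% Poisson intervals of the pileup. All 87 genes of the 7 pathway lists were found in the table. The members and lists were chosen with earlier results of these data known. Named are all members and, per list, the highest, the lowest and up to 4 genes without a start summit. Tests between concentrations, and alternatives per replicate, had no input. Python 3.11.15, NumPy 2.4.6, pandas 2.3.3 and SciPy 1.17.1 were used.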

Additional observations from a re-analysis of the deposited data

How the results depend on the processing

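The count of genes with a start summit stayed at 9 with a narrower or a wider window around the start, with either gene end, with a −log10 q of at least 10, with any overlap of the interval, with the strongest summit of each interval and with intervals of at most 10 kb. It was 7 at a −log10 q of at least 50, where CGAS and IFIT2 dropped out and the median start enrichment was 8.70. Requiring the summit inside the gene lowered the count of genes with a summit from 10 to 6 (66.1% of coding genes). In pileup in place of enrichment the median was 380 against 768 for coding genes. Giving each summit to its nearest coding gene left 8 genes, since the summits of TREX1 then went to ATRIP and SHISA5 and those of IFIT1 to LIPA and IFIT5. The highest enrichment of CGAS within 10 kb went from 11.95 to 4.46 under that rule, inside the gene and with windows of 1 or 5 kb. That of IFIT3 went from 9.56 to 7.14 under that rule, inside the gene and at 1 kb, and that of IRF3 from 8.70 to 4.86 under that rule and inside the gene. The ISRE count was 3 of 6 genes with the shorter letters GAAANNGAA and with 150 bases before the start. Of 151 values of single genes under an alternative, 142 stayed within their counting interval and 9 moved. Genes left without a summit under an alternative are not among the 151. Each alternative picks from the same deposited summits, so an unchanged value means only that the same summit was picked. It says nothing about the precision of that value. No paired analysis was possible because the list holds no value per library. For the same reason leaving out single replicates was not run. The lowest pileup called, 35, limits what the absence of a summit can show.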

Other observations

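Genes that reseal the nuclear envelope after rupture, a step that limits the exposure of DNA to cGAS, were listed together with the lamin genes LMNA and LMNB1. The genes of this list had high pileups where a start summit was called. Of 9 listed, 7 had a start summit (77.8% against 65.9% of coding genes). Their median enrichment was 14.5 and their pileups were 1497 to 2705, the lowest of which exceeded the coding median of 768. The median was the value of LMNA, and the highest pileup was that of LMNB1 (both named after their values were seen). CHMP4B, a subunit of the membrane-cutting ESCRT-III complex, was highest at 17.6. CHMP2A, another subunit of it, was lowest at 3.90, where 1497 fragments stood over a local background of 382.7. BANF1, a DNA-bridging protein that gathers at ruptures (named after its values were seen), had 13.6 and a pileup of 2038. CHMP7 and LEMD2 had no start summit, although each had a summit within 10 kb, with enrichments of 15.8 and 10.5.

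Promoters of low CpG content also occurred at the DNA sensors IFI16, AIM2 and TLR9, named after their values were seen, and their accessibility differed. AIM2, with 2 CpGs, had a start enrichment of 14.2 and a pileup of 952. IFI16, with 1 and 3 CpGs at its 2 listed starts, had an enrichment of 11.99, close to the coding median of 11.9, and a pileup of 402, below the coding median of 768. TLR9, with 2 CpGs, was at 1.48, from 60 fragments. Of these 3 genes AIM2 alone held the ISRE core.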
